A study of Mus musculus with 5 samples.

Results

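Potassium channels set the membrane potential of smooth muscle. When they open, potassium leaves the cell, the membrane hyperpolarises, voltage-gated calcium channels close and the muscle relaxes. The artery wall uses several kinds: large-conductance calcium-activated (BK) channels, voltage-gated channels, ATP-sensitive channels and two-pore-domain leak channels. Transcripts of 9 such genes were read in thoracic aorta: Kcnma1, Kcnmb1 and Kcnmb4 of the BK channel, Kcna5, Kcnab1 and Kcnq5 of the voltage-gated channels, Kcnj8 and Abcc9 of the ATP-sensitive channel, and Kcnk3 of the leak channels. They were chosen by gene name, as every probe set that the platform annotation assigns to 1 of these genes alone, which gave 21 probe sets of 45037 on the array and 9 genes of 18194.

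The P467L mice carry a human PPARγ with the dominant negative mutation P467L, placed under the promoter of smooth muscle myosin heavy chain, and were set against littermates without the transgene. PPARγ is a nuclear receptor best known from fat cells and is also active in the vessel wall. The mice were male and C57BL/6, and 3 P467L and 2 non-transgenic arrays (Affymetrix mouse genome arrays) were hybridised, each with RNA pooled from 6 to 8 aortas. A probe set is a group of short probes that together read one stretch of transcript, and its level is given on the log2 scale after normalization across arrays, so that 1 unit is a factor of 2. The promoter directs the transgene to smooth muscle while the RNA came from the whole vessel, so fewer cells of a type and less RNA per cell cannot be told apart.

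P467L replicate 1 stood apart from the other arrays, with correlations of 0.985 to 0.991 with them, against 0.995 to 0.997 among the other 4. Array medians were 6.17, 6.23 and 6.23 in P467L aortas and 6.25 in both non-transgenic arrays. All 8 smooth muscle markers were measured, none below 9.90 in any array. The log2 of their summed level was 16.67 to 16.70 in P467L and 16.68 to 16.69 in non-transgenic aortas. The brightest markers weigh most in this sum, so it says little of the dimmer ones. By gene 4 were higher and 4 lower, and the largest difference was -0.36 (SE 0.15) in Myocd. Stomach markers, which have no place in aorta, were far higher in non-transgenic replicate 2, and their summed level was 11.86 to 12.23 in P467L and 11.07 to 14.94 in non-transgenic aortas. Among the 21 channel probe sets, non-transgenic replicate 2 was the lowest or highest array in 16, where it was so in 29.2% of all probe sets. The share of all was 29.5% for non-transgenic replicate 1, and 22.7% and 45.6% for P467L replicates 2 and 3. Non-transgenic replicate 2 thus stood apart by its stomach markers, not by its share of all probe sets. For P467L replicate 1 the count among the 21 was 15, where it was the lowest or highest array in 56.7% of all. Both P467L replicate 1 and non-transgenic replicate 2 are used below. Values without 1 or both of them are given beside some differences, but not beside all that moved.

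The clearest pattern was within the ATP-sensitive channel: Abcc9 was lower in P467L aortas by all 3 of its probe sets, while its partner Kcnj8 was slightly higher. Kcna5 was 2.52-fold higher in P467L aortas by its 1 probe set. All 3 probe sets of Kcnq5 were lower, 1 of them by a factor of 2.02. The BK channel genes Kcnma1 and Kcnmb1 differed little by their bright probe sets. None of these differences passed the test: limma called 0 of the 21 probe sets at an adjusted p of 0.05, as it called 0 of all 45037, or 0% of the array.

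**Figure D1:**
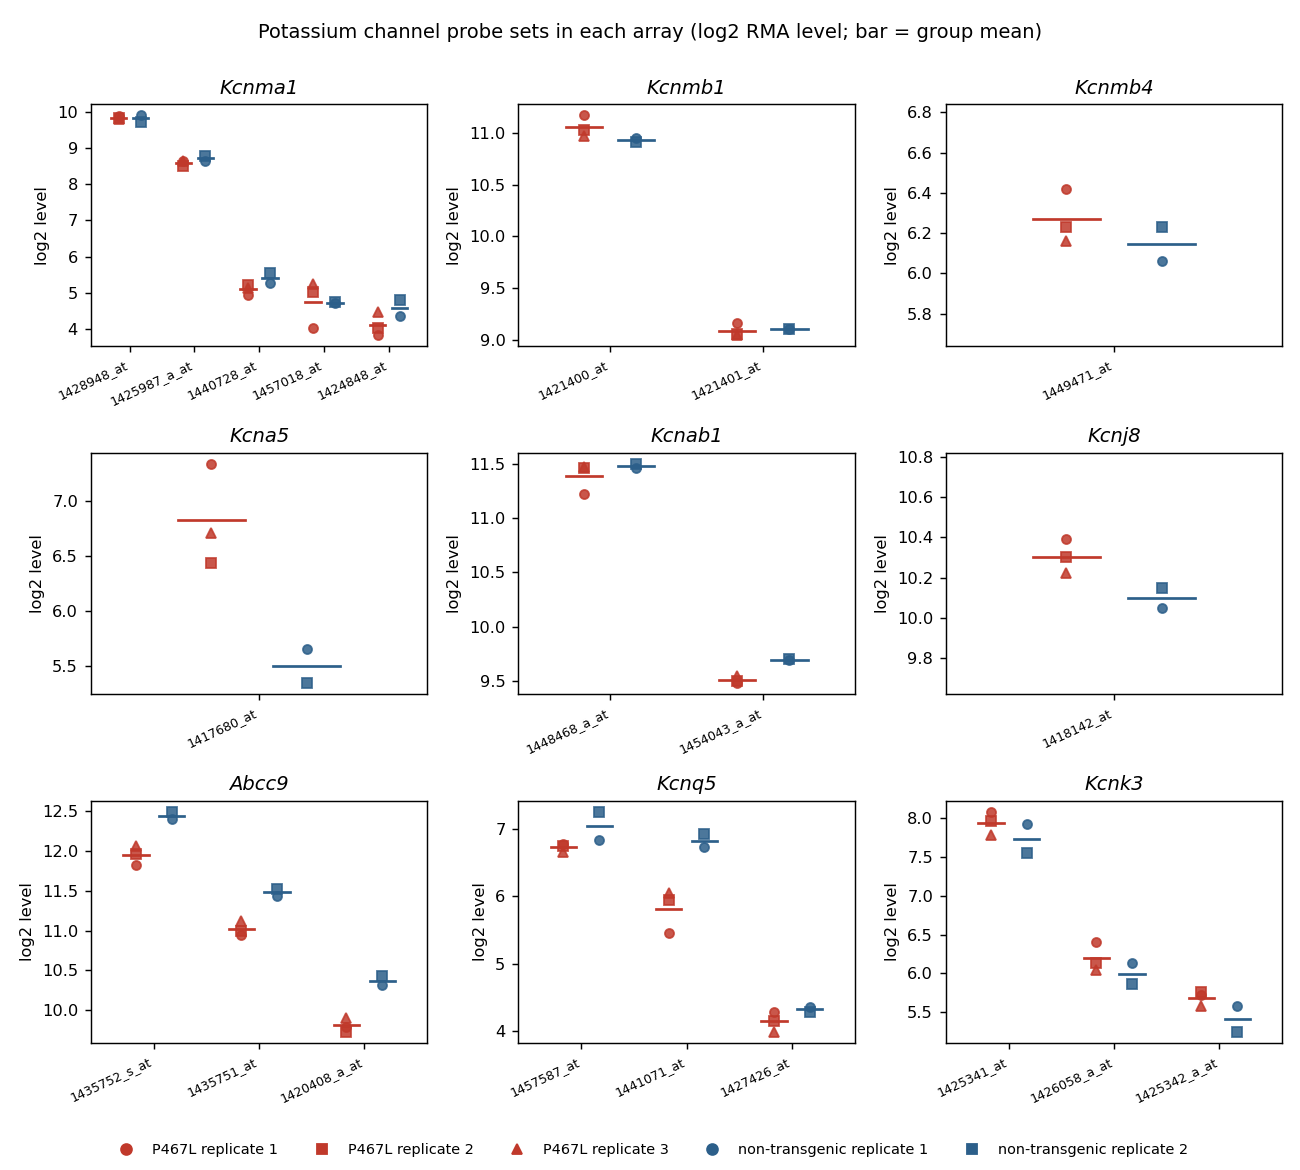
Log2 level of each probe set of the 9 potassium channel genes in each array; each panel is a gene, red points are P467L arrays, blue points non-transgenic arrays, and bars are group means. The 3 P467L arrays lie below both non-transgenic arrays in every Abcc9 probe set and above them in Kcna5.

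At an unadjusted p of 0.05 the count was 7 of 21 probe sets (33.3%), against 7.44% of all probe sets. Of these, 2 were higher in P467L aortas, in Kcna5 and Kcnj8, where 4.71% of all probe sets were higher. The other 5 were lower, 3 in Abcc9 and 1 each in Kcnab1 and Kcnq5, where 2.74% of all probe sets were lower. In 10 of 21 probe sets (47.6%) all P467L arrays lay on one side of both non-transgenic arrays, against 18.9% of the array: 3 lay higher, where the array had 11.2%, and 7 lay lower, where it had 7.61%. Probe sets of 1 gene read the same RNA, so these counts are not counts of independent observations. The genes were also chosen with earlier results of these data known, so the contrast with the whole array is not an unbiased one. The median difference over the 21 was -0.10, beside 0.00 over all probe sets. Counted once per gene, by the brightest probe set, 6 of the 9 genes were higher and 3 lower. Over all 18194 genes 10339 were higher and 7855 lower by the same count. The median was 0.12 over the 9 genes, beside 0.02 over all genes. By gene 2 were higher at an unadjusted p of 0.05 (Kcna5 and Kcnj8), where 6.94% of all genes were higher. At the same threshold 1 was lower (Abcc9), where 2.51% of all genes were lower. The groups did not overlap in 5 of the 9 genes, 3 higher and 2 lower. Over all genes this share was 22.7%, with 2934 higher and 1191 lower.

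**Figure D2:**
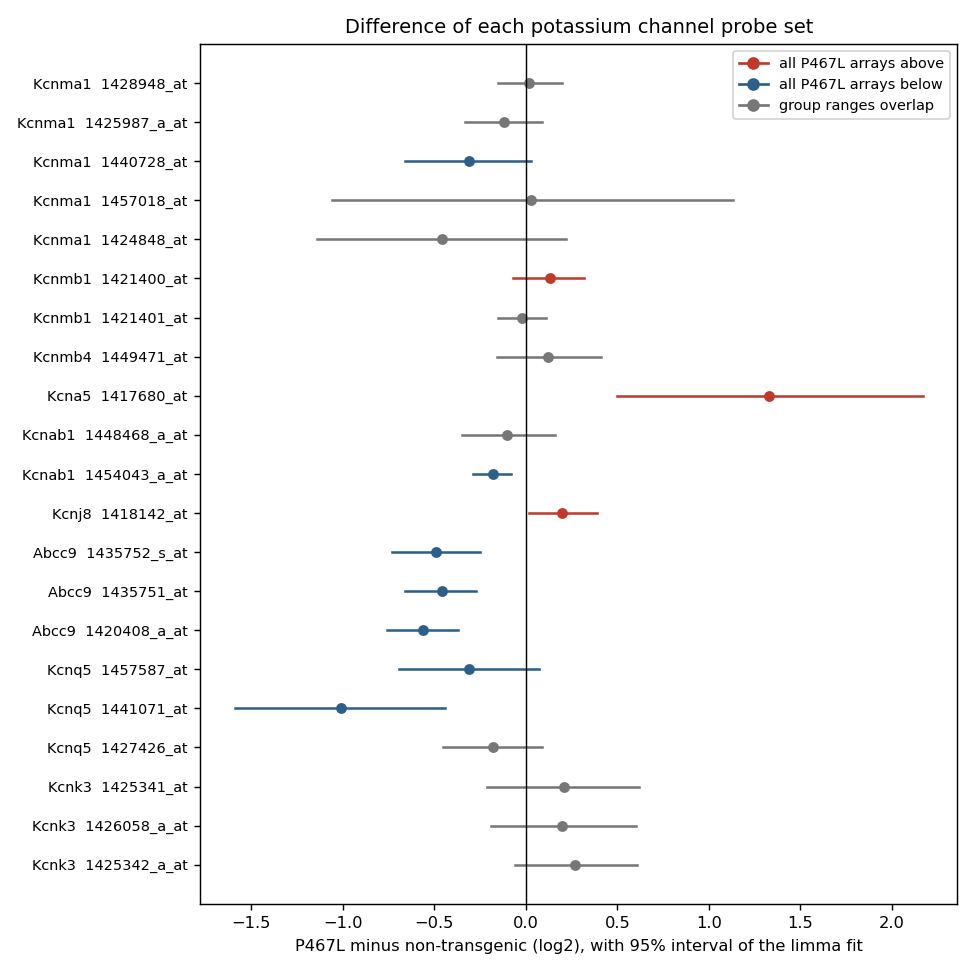
Log2 difference of each probe set (P467L minus non-transgenic arrays) with its 95% interval of the limma fit (not adjusted for the number of tests); red and blue mark probe sets with all P467L arrays above or below both non-transgenic arrays, grey the rest. The 3 intervals of Abcc9 run from -0.76 to -0.25 at their extremes, that of Kcna5 from 0.50 to 2.17, and those of the bright Kcnma1 and Kcnmb1 probe sets hold 0.

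The vascular ATP-sensitive channel is built from pore subunits encoded by Kcnj8, an inward rectifier, and regulatory sulfonylurea receptor subunits encoded by Abcc9, an ABC protein that gives the channel its response to nucleotides and to channel-opening drugs. The brightest Abcc9 probe set, 1435752_s_at, measured 11.82, 11.97 and 12.07 in P467L replicates 1 to 3, against 12.40 and 12.49 in non-transgenic replicates 1 and 2. The mean was 11.95 ± 0.13 in P467L arrays (SD, n = 3), against 12.45 ± 0.06 without the transgene (SD, n = 2). Its difference was -0.49 (SE 0.09), or 1.41-fold lower in P467L aortas, with an adjusted p of 0.395 by limma. The suffix of this probe set marks probes that may also read transcripts of related genes; the annotation gives Abcc9 alone.

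The second Abcc9 probe set, 1435751_at, measured 10.94, 10.99 and 11.12 in P467L arrays and 11.44 and 11.52 in non-transgenic arrays, a difference of -0.46 (SE 0.07). The third, 1420408_a_at, measured 9.79, 9.73 and 9.90 in P467L arrays and 10.31 and 10.43 in non-transgenic arrays, a difference of -0.56 (SE 0.07). Each P467L array was below each non-transgenic array in all 3 probe sets. The limma adjusted p was 0.321 for the second and 0.273 for the third probe set, the smallest of the 21. Without P467L replicate 1 the 3 differences were -0.42, -0.43 and -0.55 in the same order, and without that array and non-transgenic replicate 2 together they were -0.38, -0.38 and -0.49.

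Kcnj8, read by 1 probe set, measured 10.39, 10.30 and 10.22 in P467L arrays and 10.05 and 10.15 in non-transgenic arrays. All P467L arrays were thus above both non-transgenic arrays. The difference was 0.20 (SE 0.07), with a 95% interval from 0.02 to 0.39 and a limma adjusted p of 0.627.

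Abcc9 and Kcnj8 are neighbours on chromosome 6, with 0 protein-coding genes between them in the GRCm38.p6 annotation, and are read from the same strand. The 250 bases before the annotated start of each, from RefSeq, are shown because the transcripts of this adjacent pair differed in opposite directions; capitals mark E-box letters, CANNTG. The annotated Abcc9 gene extends beyond this start, so the Abcc9 bases lie inside the gene's span.
Abcc9 upstream bases, GRCm38.p6 chr6:142702275-142702524, minus strand: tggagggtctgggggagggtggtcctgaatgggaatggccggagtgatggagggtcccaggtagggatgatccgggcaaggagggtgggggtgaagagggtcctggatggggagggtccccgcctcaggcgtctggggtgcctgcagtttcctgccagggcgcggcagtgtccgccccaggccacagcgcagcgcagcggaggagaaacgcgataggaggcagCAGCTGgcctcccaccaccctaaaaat
Kcnj8 upstream bases, GRCm38.p6 chr6:142571615-142571864, minus strand: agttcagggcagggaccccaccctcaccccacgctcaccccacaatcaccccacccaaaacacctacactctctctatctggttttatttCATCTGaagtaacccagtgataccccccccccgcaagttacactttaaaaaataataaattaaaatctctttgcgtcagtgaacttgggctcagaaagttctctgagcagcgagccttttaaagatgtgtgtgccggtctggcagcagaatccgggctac
The Abcc9 bases are 66.8% G or C and hold their E-box at -27, counted from the annotated start, while the Kcnj8 bases are 49.2% G or C and hold theirs at -160. The median over all 32851 start windows of the same length was 52.4%, and 66.2% of those windows held an E-box.

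Across the genes with a start window, 8 of the 9 with 11 windows, the core letters of PPAR sites, AGGTCA, was in 0 windows on either strand, where 14.0% of all windows held it. The direct repeat of those letters with 1 base between, AGGTCANAGGTCA, was in 0 of the 11 and in 0.0335% of all windows. The CArG box, the site of serum response factor in smooth muscle genes, was in 0 of the 11 and in 1.47% of all. E-box letters were in 6 of the 11. These matches describe letters in a window of 250 bases and nothing further.

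Voltage-gated channels open on depolarisation and oppose contraction. Kcna5 encodes a pore subunit of delayed rectifier channels in arteries and in the atrium of the heart. Its probe set, 1417680_at, measured 7.34, 6.44 and 6.71 in P467L arrays, against 5.65 and 5.34 in non-transgenic arrays. The non-transgenic values lie below the array medians, and P467L replicate 1 was the highest of all. The mean was 6.83 ± 0.46 in P467L arrays (SD, n = 3), against 5.50 ± 0.22 without the transgene (SD, n = 2). The difference was 1.33 (SE 0.31), with a 95% interval of the fold from 1.41 to 4.50 and a limma adjusted p of 0.480. It was 1.08 without P467L replicate 1 and 0.93 without that array and non-transgenic replicate 2. Low probe sets were not tested against background.
The 250 bases before the Kcna5 start are shown as those of the gene with the largest difference of the 9; capitals again mark E-box letters.
Kcna5 upstream bases, GRCm38.p6 chr6:126535556-126535805, minus strand: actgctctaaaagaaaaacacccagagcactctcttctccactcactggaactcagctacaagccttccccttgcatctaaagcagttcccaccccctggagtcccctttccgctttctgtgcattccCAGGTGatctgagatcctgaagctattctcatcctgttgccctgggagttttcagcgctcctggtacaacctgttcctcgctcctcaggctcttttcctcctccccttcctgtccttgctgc
They are 53.2% G or C, near the median window, and hold 1 E-box.

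Cardiac muscle markers, of interest because Kcna5 is also an atrial gene, had a log2 summed level of 9.96 to 10.13 in P467L and 9.73 to 10.03 in non-transgenic aortas. Of these 7 markers 4 were higher and 3 lower, and the lowest measured 4.10. The groups overlapped in this list, and its part in the Kcna5 difference was not tested.

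Kcnab1 encodes a cytoplasmic beta subunit that binds pore subunits of the Kcna family and speeds their inactivation. Its brighter probe set, 1448468_a_at, measured 11.22, 11.46 and 11.47 in P467L arrays and 11.46 and 11.50 in non-transgenic arrays. P467L replicate 1 was below the rest and the other arrays were level, with a difference of -0.10 (SE 0.09) that was -0.01 without it. The dimmer one, 1454043_a_at, measured 9.48, 9.50 and 9.55 in P467L arrays and 9.69 and 9.70 in non-transgenic arrays. There the groups were apart, though the difference was small at -0.18 (SE 0.04), with a limma adjusted p of 0.445.

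Kcnq5 encodes a pore subunit of the voltage-gated family that carries a slow current at resting potentials and is expressed in arterial muscle. The probe set 1441071_at measured 5.45, 5.94 and 6.05 in P467L arrays, against 6.73 and 6.92 in non-transgenic arrays. All P467L arrays lay well below both others, and below the array medians. The difference was -1.01 (SE 0.21), with a limma adjusted p of 0.445, and it was -0.83 without P467L replicate 1 and -0.73 without both arrays that stood apart.

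The other Kcnq5 probe sets differed less. The brightest, 1457587_at, measured 6.77, 6.75 and 6.66 in P467L arrays and 6.83 and 7.25 in non-transgenic arrays, a difference of -0.31 (SE 0.14). Non-transgenic replicate 2 was the highest array, and without it the difference was -0.10. The dimmest, 1427426_at, ranged from 3.99 to 4.28 in P467L arrays and measured 4.36 and 4.28 in non-transgenic arrays, a difference of -0.18 (SE 0.10). The size of the Kcnq5 difference thus varied between its probe sets, from -1.01 to -0.18, with the same direction in each.

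The BK channel, opened by depolarisation and by local calcium release, is formed by the pore subunit Kcnma1; Kcnmb1 is the beta subunit of smooth muscle that raises its sensitivity to calcium, and Kcnmb4 is a related beta subunit best known from brain. The brightest Kcnma1 probe set, 1428948_at, measured 9.88, 9.83 and 9.81 in P467L arrays and 9.90 and 9.73 in non-transgenic arrays. The P467L values lay within the non-transgenic range. The difference was 0.02 (SE 0.07), and the 95% interval of the fold ran from 0.899 to 1.15.

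The second Kcnma1 probe set, 1425987_a_at, measured 8.64, 8.49 and 8.64 in P467L arrays and 8.64 and 8.78 in non-transgenic arrays, a difference of -0.12 (SE 0.08), which was -0.05 without non-transgenic replicate 2. The other 3 lay below the array medians, at 3.84 to 5.23 in P467L and 4.36 to 5.55 in non-transgenic arrays. Their differences were -0.31 (SE 0.13) for 1440728_at, 0.03 (SE 0.40) for 1457018_at and -0.46 (SE 0.25) for 1424848_at. Without non-transgenic replicate 2, 1440728_at gave -0.17 and 1424848_at -0.24, and without P467L replicate 1 as well both gave -0.10. For 1457018_at the difference was 0.40 without P467L replicate 1. In 1457018_at the P467L arrays spread widely, with 4.03 in replicate 1 against 5.01 and 5.23 in replicates 2 and 3, while the non-transgenic arrays measured 4.71 and 4.74. The limma adjusted p of the 5 ran from 0.721 to 0.994.

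The brighter Kcnmb1 probe set, 1421400_at, measured 11.17, 11.03 and 10.97 in P467L arrays and 10.95 and 10.91 in non-transgenic arrays. The groups did not overlap, but lay close together. Its difference was 0.13 (SE 0.07), with a 95% interval of the fold from 0.952 to 1.25, and it was 0.07 without P467L replicate 1 and 0.05 with both arrays that stood apart left out. The dimmer, 1421401_at, measured 9.16, 9.06 and 9.05 in P467L arrays and 9.11 in both non-transgenic arrays, a difference of -0.02 (SE 0.05). Kcnmb4 measured 6.42, 6.23 and 6.16 in P467L arrays and 6.06 and 6.23 in non-transgenic arrays, near the array medians and with overlapping groups. Its difference was 0.12 (SE 0.10), which was 0.05 when P467L replicate 1 was left out and 0.21 when non-transgenic replicate 2 was. The limma adjusted p was 0.784 or more for all 3 probe sets of the beta subunits.

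Kcnk3 encodes an acid-sensitive leak channel that holds the resting potential and is also expressed in atrium and brown fat. Its brightest probe set, 1425341_at, measured 8.08, 7.97 and 7.79 in P467L arrays and 7.93 and 7.55 in non-transgenic arrays. Non-transgenic replicate 2 was the lowest and replicate 1 lay among the P467L arrays. The 3 probe sets gave differences of 0.21 (SE 0.15), 0.20 (SE 0.15) and 0.27 (SE 0.12), with limma adjusted p of 0.766 to 0.784. Without non-transgenic replicate 2 they gave 0.02, 0.07 and 0.11, and without P467L replicate 1 as well -0.05, -0.03 and 0.09. Of 7 adipocyte markers 5 were measured, none below 5.02. Their log2 summed level was 10.47 to 11.24 in P467L and 10.28 to 11.51 in non-transgenic aortas. That level was lowest in non-transgenic replicate 2, as Kcnk3 was. It was highest in non-transgenic replicate 1, where no Kcnk3 probe set was highest. The part of fat cells in the Kcnk3 values was not tested.

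Changes of auxiliary and pore subunits were also set against each other within each array, which removes any shift the paired transcripts share. Levels of different probe sets are not comparable, so only the change between genotypes has meaning. The log2 level of Abcc9 minus that of Kcnj8 was 1.43, 1.67 and 1.85 in P467L arrays and 2.35 and 2.34 in non-transgenic arrays. This is 0.70 units lower in P467L aortas (1.65 ± 0.21, SD, n = 3, against 2.34 ± 0.01, SD, n = 2; exact two-sided permutation p = 0.1), and all 3 P467L arrays were below both others. Leaving out P467L replicate 1 gave a change of -0.58 for this pair. Kcnab1 minus Kcna5 was 3.88, 5.02 and 4.76 in P467L arrays and 5.81 and 6.16 in non-transgenic arrays, a change of -1.43 (exact two-sided permutation p = 0.1). Kcna5 differed by 1.33 and Kcnab1 by -0.10, so this change was mostly that of Kcna5. Without P467L replicate 1 the change was -1.09.

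For Kcnmb1 minus Kcnma1 the change was 0.10 and for Kcnmb4 minus Kcnma1 also 0.10, with overlapping groups and exact permutation p of 0.3 and 0.6. With 3 arrays against 2 the exact test cannot go below 0.1, so no pair could pass 0.05. Adjusted over the 4 pairs the values were 0.2 for Abcc9 with Kcnj8 and for Kcnab1 with Kcna5, 0.4 for Kcnmb1 and 0.6 for Kcnmb4. The same limit holds for single genes: the exact p was 0.1 for the brightest probe sets of Kcna5, Abcc9 and Kcnq5 and 0.2 for those of Kcnj8 and Kcnmb1.

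**Figure D3:**
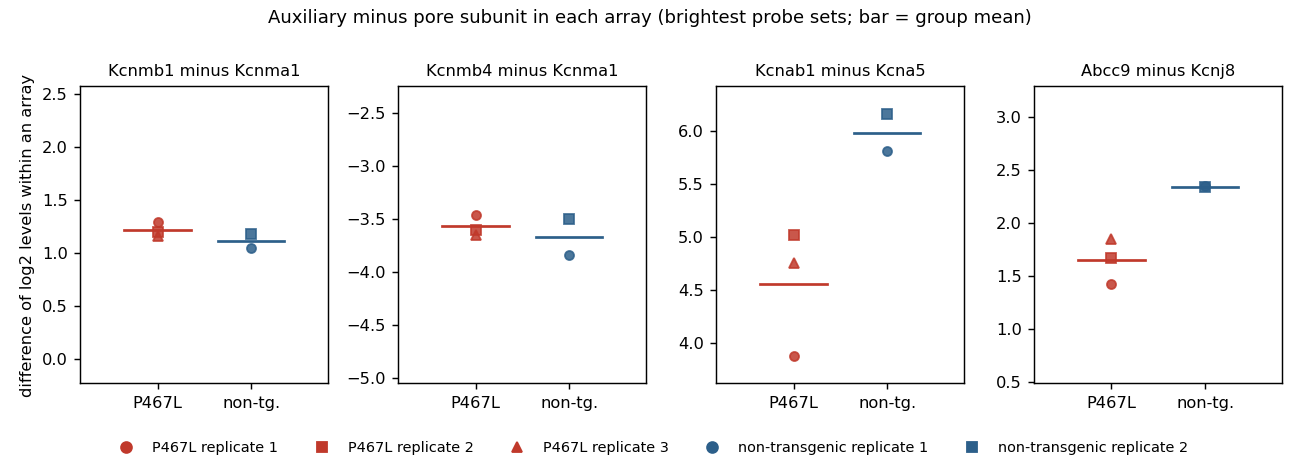
Log2 level of the auxiliary subunit minus that of the pore subunit within each array, from the brightest probe set of each gene; red points are P467L arrays, blue points non-transgenic arrays, bars are group means, and each panel spans the same number of units. The P467L arrays lie below the non-transgenic arrays for Kcnab1 with Kcna5 and for Abcc9 with Kcnj8.

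The aorta holds other cells than smooth muscle, and Kcnj8 and Abcc9 also mark pericytes. The 5 other pericyte markers had a log2 summed level of 13.18 to 13.27 in P467L and 13.14 to 13.19 in non-transgenic aortas; 4 were higher and 1 lower, and the lowest measured 4.44. Endothelial markers, 8 of 8 measured, gave 12.51 to 12.67 in P467L and 12.53 to 12.55 in non-transgenic aortas, with 5 higher and 3 lower. Fibroblast markers (7 of 7) gave 14.82 to 14.99 in P467L and 14.79 to 14.87 in non-transgenic aortas. Macrophage markers (7 of 7) gave 12.65 to 13.01 in P467L and 12.65 to 12.66 in non-transgenic aortas, and all 7 were higher by group means. Skeletal muscle markers (6 of 6) gave 9.13 to 9.72 in P467L and 8.62 to 9.14 in non-transgenic aortas, with 2 higher and 4 lower. In that list Ckm, muscle creatine kinase, measured 9.08, 8.77 and 8.27 in P467L arrays and 7.67 and 7.09 in non-transgenic arrays, a difference of 1.33 (SE 0.32). Ckm was singled out after its values were seen. Schwann cell and neuron markers (6 of 8) gave 10.59 to 10.90 in P467L and 10.36 in both non-transgenic arrays, with 3 higher and 3 lower. Most of that sum was Uchl1, a neuronal enzyme, at 10.53, 10.26 and 10.19 in P467L arrays and 9.77 and 9.83 in non-transgenic arrays. By the mean log2 level of each list, in which every gene counts alike, skeletal muscle markers overlapped between the groups. Schwann cell and neuron markers overlapped too. By that measure pericyte markers lay apart, at 9.42 to 9.50 in P467L and 9.33 to 9.36 in non-transgenic aortas. Smooth muscle markers lay just apart on the other side, with 4 higher and 4 lower. The part of these cells in the channel differences was not tested.

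Of 88 other potassium channel genes in 5 lists, 77 were measured, and 0 passed an adjusted p of 0.05 by limma. Read by the brightest probe set of each gene, 8 were higher at an unadjusted p of 0.05 (10.4%), where 6.94% of all genes were higher, and 6 were lower (7.79%), where 2.51% of all genes were lower. The median difference over the 77 was -0.01, beside 0.02 over all 18194 genes. The same shares of all genes, 6.94% higher and 2.51% lower, belong beside the count of each list below.

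The largest difference among them was in the two-pore-domain list (11 of 13 measured): Kcnk1, a weakly inward rectifying leak channel, measured 9.35, 8.95 and 8.83 in P467L arrays, against 6.99 and 6.43 in non-transgenic arrays. Every P467L array was above both others by more than a log2 unit. This was a 5.04-fold higher level, a difference of 2.33 (SE 0.25), with a limma adjusted p of 0.209, and its second probe set gave 1.50 (SE 0.25). The gene with the next smallest p in that list, Kcnk2, a mechanosensitive leak channel, gave 0.06 (SE 0.03).

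Of the other inward rectifiers and sulfonylurea receptors, all 15 were measured, 0 higher and 2 lower at an unadjusted p of 0.05. Kcnj15 measured 8.63, 8.53 and 8.71 in P467L arrays and 9.26 and 9.45 in non-transgenic arrays, a difference of -0.73 (SE 0.09, limma adjusted p = 0.249). Its other probe sets gave -1.10 and -0.30, so all 3 had the direction of Abcc9, though these others lay below the array medians in every array. Kcnj16, which pairs with other inward rectifiers, gave -0.39 (SE 0.13) by its brighter probe set and -0.19 (SE 0.11) by the other. Both lay below the array medians in every array.

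Among the other voltage-gated pore subunits, 29 of 37 measured, 4 were higher and 3 lower at an unadjusted p of 0.05. Kcnd3, which carries a transient outward current, gave -0.38 (SE 0.06) by its brightest probe set and -0.16 to -0.07 by its dimmer ones. Kcnh2, which carries a rapid delayed rectifier current in heart, gave 0.23 (SE 0.05). Of 13 auxiliary subunits, all measured, 2 were higher and 1 lower. Dpp10, which associates with channels of the Kcnd family, gave 0.62 (SE 0.07) by its brighter probe set and 0.07 (SE 0.09) by the other, and Kcne3 gave 0.28 (SE 0.07); both lay below the array medians in every array.

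Of the other calcium-activated channels, 9 of 10 were measured, with 1 higher and 0 lower at an unadjusted p of 0.05. Kcnn4, the intermediate-conductance channel of endothelium and blood cells, gave 0.31 (SE 0.09) by its brighter probe set and 0.33 (SE 0.16) by the other. Kcnn1 gave 0.23 (SE 0.11) by its brighter probe set and 0.07 (SE 0.06) by the other. Of 19 genes for calcium release and kinases that govern BK channels, 17 were measured. At the same threshold 1 was higher, where 6.94% of all genes were higher, and 0 were lower, where 2.51% were lower. The higher one was Pln, phospholamban, which restrains the calcium pump of the sarcoplasmic reticulum. It measured 7.32, 7.53 and 7.92 in P467L arrays and 7.05 and 6.78 in non-transgenic arrays, a difference of 0.68 (SE 0.21). Its other probe sets gave 0.68 and 0.57. The pump gene Atp2a2 gave -0.12 (SE 0.05) by its brightest probe set, -0.17 (SE 0.04) by the next and -0.13 to -0.06 by the dimmer ones. The next brightest had an unadjusted limma p of 0.0156, which the count by brightest probe set leaves out. The limma adjusted p was at least 0.209 for every gene of these lists.

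**Figure D4:**
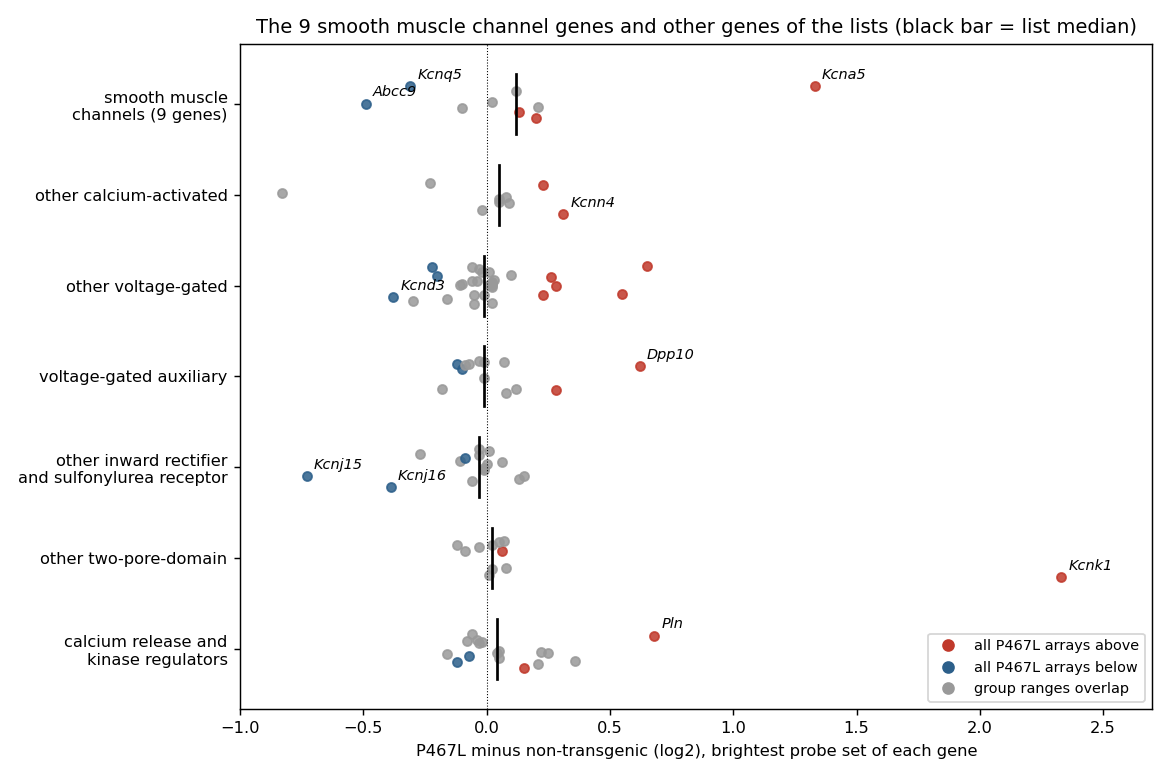
Log2 difference of each gene (P467L minus non-transgenic arrays) by its brightest probe set, for the 9 smooth muscle channel genes and the genes of 6 further lists; vertical jitter has no meaning and black bars are list medians; red and blue mark genes with all P467L arrays above or below both non-transgenic arrays, grey the rest. Kcnk1 at 2.33 and Kcna5 at 1.33 lie furthest to the right, while the list medians lie between -0.03 and 0.12.

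The calls depended on how arrays were weighted. With limma's array weights, 5 of the 21 probe sets passed an adjusted p of 0.05, all 3 of Abcc9, the dimmer one of Kcnab1 and 1441071_at of Kcnq5, but 2245 probe sets of the array passed too. That estimate stopped before it converged and gave P467L replicate 2 a weight of 34.1, against 0.148 and 0.244 for P467L replicates 1 and 3. With weights estimated gene by gene, 2 of the 21 passed, both in Abcc9, and 283 of the array.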

How the data were processed

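The authors deposited log2 values. Per the submitters' processing notes they used RMA and Affymetrix Power Tools, with versions not given in the sources used here. Of 45101 probe sets, 64 controls were left out; 34945 had 1 gene, 932 several and 9160 none in the platform annotation, with symbols updated through NCBI gene numbers. P467L minus non-transgenic was fitted over all 45037 probe sets with limma 3.58.1 in R 4.3.3 (two-sided, Benjamini-Hochberg adjustment, no covariate; 4.23 degrees of freedom per test), and checked on simulated data. The p-values measure only the spread between these pools; precision is limited by the number of arrays. Upstream sequences came from the RefSeq GRCm38.p6 table.

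The channel genes, lists, tests and alternatives were chosen with earlier results of these data known. Named were all probe sets of the 9 genes and, per list, the 2 genes with the smallest p. Likeness of pattern was not computed, since 5 arrays are too few. Alternatives were a replicate block, a variance trend, array weights, a second quantile normalization, centring on medians, leaving out dim probe sets, 1 probe set per gene, another threshold and each array left out. Gene-by-gene weights and a fit without the 2 arrays that stood apart were chosen after seeing the data. No batch was given.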

Additional observations from a re-analysis of the deposited data

How the results depend on the processing

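Of 286 refitted differences over the 21 probe sets, 273 kept their direction and 10 reversed. The other 3 came out at 0.00, all in Kcnmb1 1421401_at. In all refits 15 probe sets kept their direction. The variance trend, the filters on level and the use of 1 probe set per gene cannot change a difference. Their refits kept direction by construction, so 273 is not a count of independent checks. Median centring only adds the same shift to every difference. With the replicate block 0 probe sets of the array and 0 of the 21 passed, and no call changed. Replicate 3 has no non-transgenic partner, so the block absorbed that array, and the differences were those without it. Few degrees of freedom were left, so this fit could hardly call a probe set. Same-numbered arrays deviated from their group means together at 0.113 and 0.00814, with 2 shared numbers. With 2 non-transgenic arrays, the deviations of 1 mirror those of the other, so these values cannot show whether the numbers pair the samples. The main fit did not pair them. Over the array 0 passed when any 1 array was left out, 15 with median centring, 9 among probe sets at 7 or more, 10 with 1 probe set per gene, 17 at an adjusted p of 0.10, 2245 with array weights (5 of the 21) and 283 with gene-by-gene weights (2 of the 21). The other settings gave 0 calls among the channel probe sets they tested, which were 13 at or above the median level, 12 at 7 or more (Kcna5 and Kcnq5 1441071_at among those left out), 9 with 1 per gene and 21 otherwise.

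Reversed were Kcnma1 1457018_at, at -0.21 with the replicate block and -0.20 to 0.40 with 1 array left out, and Kcnma1 1428948_at, at -0.03 after a second quantile normalization, -0.08 without both arrays that stood apart and -0.06 to 0.11 with 1 array left out. Kcnmb1 1421401_at gave 0.02 with median centring, and without both arrays Kcnab1 1448468_a_at gave 0.01, Kcnk3 1425341_at -0.05 and Kcnk3 1426058_a_at -0.03. By the mean of all probe sets, Kcnmb1 minus Kcnma1 changed by 0.22 and Kcnmb4 minus Kcnma1 by 0.29; the Kcnmb4 pair ran from -0.07 to 0.27 with 1 array left out. The causes were not tested.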
